A study of Mus musculus with 10 samples.

Results

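Livers of mice that carry the active nuclear form of human SREBP-1a (TgSREBP-1a) were compared directly with livers of mice that carry the active nuclear form of human SREBP-2 (TgSREBP-2). The comparison rests on 4 of the 10 arrays in the series, 2 for each transgene, and covers all 11868 probe sets of the Affymetrix MG_U74Cv2 array that are not AFFX controls. These probe sets measured 5928 named genes. Both transgenic groups were male, 12 to 16 weeks old, and ate high protein/low carbohydrate food over the last 2 weeks, which switches the transgenes on strongly. Each group was 1 pool of liver RNA from 5 mice, hybridised to 2 arrays. Male wild-type littermates of the same age on the same diet (SREBP wild type, 1 pool, 2 arrays) are given as a level beside the transgenic values and took no part in the difference. The other 4 arrays, from Scap-/-;MX1-Cre mice and their wild type (10 to 12 weeks old, on chow, 14 days after the last of 4 polyinosinic-polycytidylic acid injections), entered only the estimate of spread.

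SREBPs are transcription factors held in the endoplasmic reticulum membrane until sterols run low, when SCAP escorts them to the Golgi and proteolysis releases the part that enters the nucleus. SREBP-1a can drive both fatty acid and cholesterol synthesis genes, whereas SREBP-2 favours cholesterol synthesis and uptake. They bind sterol regulatory elements, usually with NF-Y or Sp1 bound nearby. In these transgenic lines the truncated human protein needs no SCAP and is made from a phosphoenolpyruvate carboxykinase promoter, so the dietary state sets its level. Each transgene is a separate line, so anything else that differs between the lines cannot be told apart from the isoform.

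The deposited values are log2 signals, so a difference of 1 is a doubling. In what follows, a difference is TgSREBP-1a minus TgSREBP-2, and a probe set is called when the adjusted p is under 0.05 and the difference is at least 1.5-fold (0.585 on the log2 scale). Because both arrays of a group carry the same RNA pool, the p-values measure only the spread between hybridisations and say nothing of variation among mice. Signals under 3.54, the 25th percentile over all probe sets, are treated as low and no fold is quoted against them. In whole liver, fewer cells of a type and less RNA per cell cannot be told apart.

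The 4 transgenic arrays had medians between 4.71 and 4.76. Duplicates correlated at 0.9945 for TgSREBP-1a and 0.9936 for TgSREBP-2, and arrays of different transgenes at 0.9885 to 0.9919. Between duplicates, 0.43% and 0.868% of probe sets differed by more than 1.5-fold, against 1.46% to 2.66% between the transgenes. Of 5 hepatocyte markers measured, Hpx (10.34 to 11.16), Apoe (8.16 to 8.28) and Tdo2 (7.67 to 7.80) were well above the low-signal bound on the 4 arrays, while the probe sets for Ahsg and Serpina1a lay below it. The transgenes' own transcripts were not analysed here, since no tested probe set is named for Srebf1 or Srebf2.

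Few transcripts separated the isoforms. Of the 11868 probe sets, 61 were called (0.514%), with 32 higher in TgSREBP-1a (0.27%) and 29 higher in TgSREBP-2 (0.244%). Differences of at least 2-fold were found among 14 of the former and 17 of the latter, and of at least 4-fold among 2 and 4. Over all 5928 genes the median difference was -0.02, and 43.7% of genes lay above 0. Counted by the brightest probe set of each gene, 44 genes were called (0.742%), 23 higher in TgSREBP-1a (0.388%) and 21 higher in TgSREBP-2 (0.354%).

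The calls depended on each of the 4 arrays. Without any single one of them, 20 of the 61 were still called, 10 in each direction, and the count dropped to between 23 and 38. The 20 include Plekhd1, H2-Q2, Ppp1r3g, Fyb2, Anxa5, Sult1e1, Hephl1, Acpp, Cemip2 and Nrg4 on the TgSREBP-1a side, and Cpa1, Sdr9c7, Gp2, Cuzd1, Slc3a1, B3galt1, Fads3, Serpina11 and Ctrc on the TgSREBP-2 side, with 1 unnamed probe set. Among the 61, 29 have names that do not end in plain _at, and 17 of these end in _f_at, which marks probes that may match more than 1 transcript.

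**Figure D1:**
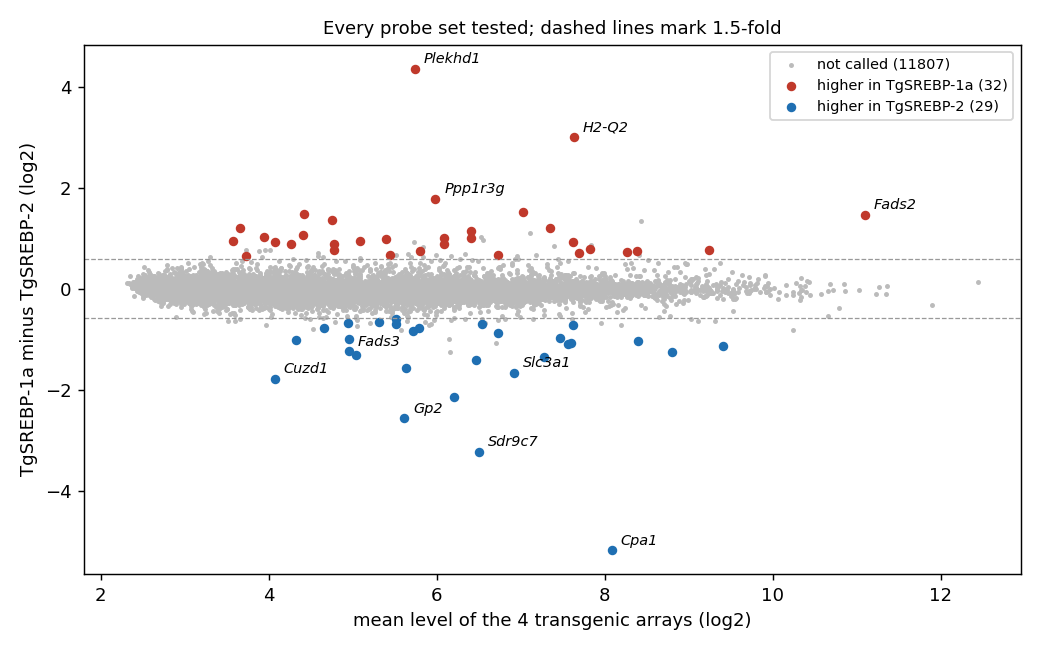
Difference between the transgenic pools (TgSREBP-1a minus TgSREBP-2, log2) against the mean level of the 4 transgenic arrays (log2), 1 point per probe set. Red points (32) were called higher in TgSREBP-1a, blue points (29) higher in TgSREBP-2, grey points were not called, and the dashed lines mark 1.5-fold. Most points lie inside the dashed lines, and Plekhd1 at 4.36 and Cpa1 at -5.18 stand at the extremes.

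The wild-type level was set beside each called pair of transgenic levels. Of the 32 probe sets higher in TgSREBP-1a, 24 had a wild-type level within 1.5-fold of TgSREBP-2 but not of TgSREBP-1a, 5 were within 1.5-fold of both, and 3, Fads2 among them, had a wild-type level outside both. Of the 29 higher in TgSREBP-2, 15 had a wild-type level near TgSREBP-2 but not TgSREBP-1a, 7 near TgSREBP-1a but not TgSREBP-2, 4 near both, and 3 between the transgenic levels. These are positions of levels and were not tested.

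Cholesterol synthesis, which both isoforms are known to drive, held 13 measured genes and none was called in the limma fit. Over all genes 0.742% were called, so a count of 0 among 13 is not read as a result. The median difference of the 13 was -0.10 against -0.02 for all genes, with 9 of 13 below 0. The arrays of the transgenes did not overlap for 7 of the 13, where 37% of all probe sets showed the same. Tm7sf2, a sterol reductase that acts after lanosterol demethylation, read 9.87 and 9.79 in TgSREBP-1a, 10.97 and 10.33 in TgSREBP-2, and 8.70 and 8.06 in wild type. Both transgenic pools lay above wild type, with the TgSREBP-2 arrays the higher pair. Its difference of -0.81 (95% interval -1.32 to -0.30, limma adjusted p = 0.28) was not called, and it was the widest in the pathway.

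Nsdhl and Pmvk had smaller gaps between the transgenes. Nsdhl, the sterol dehydrogenase that removes methyl groups at carbon C-4 of the sterol ring, read 10.68 and 10.51 in TgSREBP-1a and 11.26 and 10.70 in TgSREBP-2, against 7.79 and 7.17 in wild type. Pmvk, phosphomevalonate kinase, read 9.40 and 9.23 in TgSREBP-1a and 9.54 and 9.33 in TgSREBP-2, against 6.64 and 6.12. For both genes the transgenic levels stood far above wild type. Both TgSREBP-2 arrays read above both TgSREBP-1a arrays for Nsdhl, and the transgenes overlapped for Pmvk. The 95% interval of the difference ran from -0.99 to 0.23 for Nsdhl and from -0.48 to 0.24 for Pmvk, and both intervals include 0.

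Cyp51, the lanosterol demethylase, read 5.46 and 5.44 in TgSREBP-1a, 6.25 and 5.55 in TgSREBP-2, and 4.71 and 4.81 in wild type. The TgSREBP-2 duplicates were further apart than the gap between the nearer arrays of the transgenes, and the difference was -0.45 (SE 0.187). Fdps, farnesyl diphosphate synthase, differed by -0.40 (SE 0.146), and a dimmer probe set of the same gene by 0.03. Wild type read 5.29 and 5.48 for Fdps, above the arrays of both transgenes. Lss, lanosterol synthase, read 5.47 and 5.52 against 5.54 and 5.50, a difference of -0.03 (SE 0.101), with wild type at 5.02 and 4.95. The remaining 7, Dhcr7, Ggps1, Msmo1, Mvd, Hsd17b7, Sc5d and Mvk, differed by between -0.13 and 0.16. Wild type overlapped the arrays of at least 1 transgene for Mvd (10.27 and 10.28), Dhcr7, Mvk, Ggps1 and Hsd17b7. It lay above both transgenes for Msmo1 (5.23 and 5.25), and below both for Sc5d (2.98 and 3.09, low signals). Where neither transgene stood above wild type, a small gap between them does not show that both isoforms drive the gene.

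The promoters of Tm7sf2 and Nsdhl are shown because these genes had high levels in both transgenic livers and carry the co-factor motifs of SREBP. They are the 250 bases before the RefSeq start (GRCm38.p6), for Tm7sf2 chr19:6067851-6068100 on the minus strand and for Nsdhl chrX:72918271-72918520 on the plus strand, written 5′ to 3′ along the gene. Capitals mark CCAAT (NF-Y) and GGGCGG (Sp1) on either strand, so ATTGG is the reverse form of the NF-Y motif and CCGCCC that of the Sp1 motif.
Tm7sf2: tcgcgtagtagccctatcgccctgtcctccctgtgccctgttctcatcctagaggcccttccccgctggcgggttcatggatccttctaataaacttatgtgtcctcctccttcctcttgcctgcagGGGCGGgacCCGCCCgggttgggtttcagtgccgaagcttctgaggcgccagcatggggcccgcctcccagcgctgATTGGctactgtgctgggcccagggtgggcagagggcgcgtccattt
Nsdhl: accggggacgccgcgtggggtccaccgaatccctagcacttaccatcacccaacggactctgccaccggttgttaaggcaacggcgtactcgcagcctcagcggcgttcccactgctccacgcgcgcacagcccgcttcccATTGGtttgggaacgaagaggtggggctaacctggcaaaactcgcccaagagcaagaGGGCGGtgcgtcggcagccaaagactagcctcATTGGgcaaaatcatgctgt
Tm7sf2 has 1 NF-Y match and 2 Sp1 matches, and Nsdhl has 2 and 1. Of 12 measured cholesterol synthesis genes with a RefSeq promoter (15 promoters), all 12 had an NF-Y match in at least 1 promoter. By promoter, 80% held CCAAT and 73.3% GGGCGG, against 34.3% and 48.9% of the 5935 promoters of measured genes. The sterol regulatory element TCACNCCAC, searched on both strands, was in none of the 15 promoters and in 0.91% of the promoters of measured genes. These matches describe letters in this window only.

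**Figure D2:**
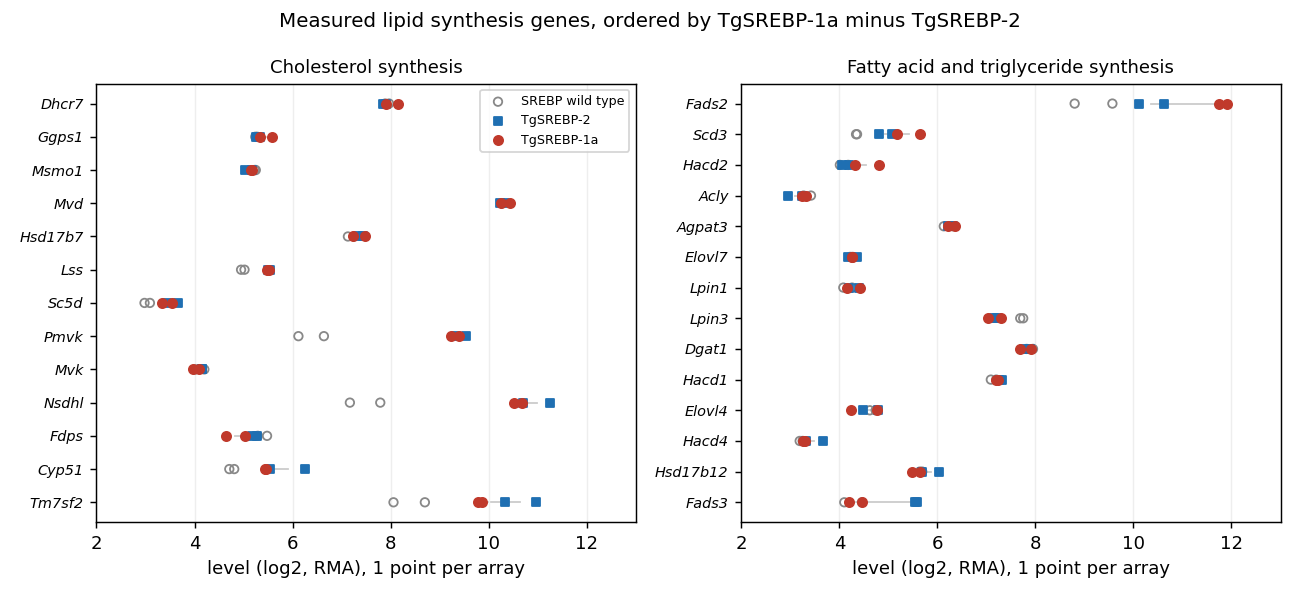
Levels of the measured genes of cholesterol synthesis (left) and of fatty acid and triglyceride synthesis (right), in log2 RMA units, 1 point per array and ordered by difference. Red circles are TgSREBP-1a, blue squares TgSREBP-2, open circles SREBP wild type, and grey lines join the transgenic means. Among the cholesterol genes the red and blue points lie close together, with Tm7sf2 the furthest apart at -0.81, while Fads2 and Fads3 separate in opposite directions.

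Fatty acid and triglyceride synthesis held 14 measured genes, of which Fads2 was called higher in TgSREBP-1a, Fads3 higher in TgSREBP-2, and 12 were not called. Over all genes, 0.742% were called. The list's median difference was -0.01, with 5 genes above 0 and 9 below it. Fads2, the delta-6 desaturase that starts the synthesis of polyunsaturated fatty acids, read 11.91 and 11.75 in TgSREBP-1a, 10.62 and 10.11 in TgSREBP-2, and 9.57 and 8.80 in wild type. The 3 genotypes did not overlap, and TgSREBP-2 lay between wild type and TgSREBP-1a. Fads2 was 2.76-fold higher in TgSREBP-1a (log2 1.47, SE 0.252, limma adjusted p = 0.026). The call was lost when any of the 4 transgenic arrays was left out, with differences then between 1.21 and 1.72 and adjusted p up to 0.321.

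Fads3 is the next protein-coding gene along chromosome 19 and encodes a desaturase that acts on sphingoid bases. It read 4.20 and 4.47 in TgSREBP-1a, 5.55 and 5.59 in TgSREBP-2, and 4.46 and 4.10 in wild type. TgSREBP-1a and wild type overlapped, and TgSREBP-2 stood apart from both. Fads3 was 2.35-fold higher in TgSREBP-2 (log2 -1.24, SE 0.13, limma adjusted p = 0.000943), and the call held without any single array. A second, dimmer probe set of Fads3 differed by 0.20 and was not called, so the difference belongs to 1 of the gene's 2 probe sets.

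The promoters of these neighbouring desaturases are shown because the genes differed in opposite directions. They cover chr19:10101504-10101753 on the minus strand for Fads2 and chr19:10041298-10041547 on the plus strand for Fads3 (GRCm38.p6, RefSeq), each the 250 bases before the start, with the same motifs in capitals.
Fads2: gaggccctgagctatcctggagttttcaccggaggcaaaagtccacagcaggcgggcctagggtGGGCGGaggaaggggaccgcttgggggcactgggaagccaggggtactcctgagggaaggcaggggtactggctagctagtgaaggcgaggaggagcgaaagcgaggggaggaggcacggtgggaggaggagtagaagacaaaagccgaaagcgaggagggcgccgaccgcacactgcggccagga
Fads3: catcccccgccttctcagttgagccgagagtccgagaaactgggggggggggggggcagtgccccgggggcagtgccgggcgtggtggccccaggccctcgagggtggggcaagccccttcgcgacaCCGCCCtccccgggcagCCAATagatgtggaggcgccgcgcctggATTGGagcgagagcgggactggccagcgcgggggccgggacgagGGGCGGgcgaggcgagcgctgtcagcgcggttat
The Fads2 window holds 1 Sp1 match and no NF-Y match, and the Fads3 window holds 2 of each. Neither holds TCACNCCAC or the E-box CACGTG.

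The remaining lipid synthesis genes were close between the isoforms. Scd3, a stearoyl-CoA desaturase, read 5.18 and 5.64 in TgSREBP-1a, 5.07 and 4.81 in TgSREBP-2, and 4.34 and 4.36 in wild type. The transgenic arrays were apart and both pairs lay above wild type, but the difference of 0.47 (SE 0.157, limma adjusted p = 0.392) was not called. Hacd2, a dehydratase of fatty acid elongation, differed by 0.43, Hsd17b12, a reductase of the same cycle, by -0.29, and Acly, which makes cytosolic acetyl-CoA, by 0.19 at a low signal. Dgat1, Lpin1, Lpin3, Agpat3, Elovl4, Elovl7, Hacd1 and Hacd4 differed by between -0.21 and 0.02, although a dimmer probe set of Lpin3 gave 0.43.

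Sterol handling outside synthesis held 9 measured genes and none was called. Abcg8, which with its partner exports cholesterol and plant sterols into bile, read 8.97 and 9.01 in TgSREBP-1a, 9.91 and 9.35 in TgSREBP-2, and 7.61 and 7.68 in wild type. Both transgenic pools stood above wild type and the TgSREBP-2 arrays were the higher pair. The difference of -0.64 (SE 0.155, limma adjusted p = 0.161) was not called, but it was called at -0.92 with the second TgSREBP-2 array left out. Mbtps1, the protease that makes the initial cut in SREBP processing, differed by -0.09, Npc2 by -0.13, and Stard4, a cytosolic sterol carrier, by 0.01. No gene was called among 7 of lipid droplets and lipoproteins (median -0.04), 16 of phospholipid and sphingolipid metabolism (median 0.00) or 2 of bile acid synthesis and transport.

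Outside lipid synthesis, the widest gap toward TgSREBP-1a was Plekhd1, which encodes a protein with a pleckstrin homology domain and a coiled coil. It read 8.05 and 7.79 in TgSREBP-1a, 3.45 and 3.67 in TgSREBP-2, and 3.27 and 3.49 in wild type. TgSREBP-2 and wild type overlapped near the low-signal bound, and TgSREBP-1a alone was well above it. The difference was 4.36 on the log2 scale (SE 0.124, limma adjusted p = 8.2e-09). No fold is given, since 1 TgSREBP-2 array is under the bound, and the difference ranged from 4.23 to 4.49 when arrays were left out.

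H2-Q2, a class I histocompatibility gene of the Q region, read 9.27 and 8.98 in TgSREBP-1a, 6.02 and 6.23 in TgSREBP-2, and 6.03 and 5.91 in wild type. Again TgSREBP-1a stood apart from the other 2 genotypes. It was 8.02-fold higher in TgSREBP-1a (log2 3.0, SE 0.148, limma adjusted p = 1.3e-06). Its probe set is an _f_at set and class I genes are near copies of each other, so which class I transcript it read is uncertain. Of the other 2 histocompatibility genes measured, H2-Aa differed by -0.15 and Ciita by 0.13. Of 13 interferon-response genes none was called and the median was -0.08. Irf7, an interferon regulatory factor, was the widest at -0.72 (7.89 and 7.77 against 8.52 and 8.59, limma adjusted p = 0.13), and it was called in 5 of 19 alternative settings, among them the 4 transgenic arrays alone.

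Ppp1r3g, a subunit that directs protein phosphatase 1 to glycogen and favours glycogen synthesis in liver, read 7.09 and 6.66 in TgSREBP-1a, 5.14 and 5.04 in TgSREBP-2, and 5.66 and 5.43 in wild type. The TgSREBP-1a arrays were the highest and the TgSREBP-2 arrays the lowest of the 6. The difference was 3.45-fold (log2 1.78, SE 0.146, limma adjusted p = 0.000125). It was the only call among 14 genes of glycolysis, gluconeogenesis and glycogen (0.742% of all genes were called), whose median was -0.03. A sister subunit, Ppp1r3d, differed by -0.02, the glycogen phosphorylase Pygb by 0.00 and the muscle-type glycogen synthase Gys1 by -0.11.

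The promoters of Plekhd1 (chr12:80692351-80692600, plus strand) and Ppp1r3g (chr13:35967656-35967905, plus strand) are shown as those of the genes furthest toward TgSREBP-1a that have a RefSeq promoter and a plain _at probe set. The promoter of Camk1d that ends at the downstream RefSeq start (chr2:5676047-5676296, minus strand), is shown because it is the sole promoter of a called gene that holds the sterol regulatory element. All are 250 bases before the start in GRCm38.p6, with the NF-Y and Sp1 motifs and, in Camk1d, the reverse form of the sterol regulatory element in capitals.
Plekhd1: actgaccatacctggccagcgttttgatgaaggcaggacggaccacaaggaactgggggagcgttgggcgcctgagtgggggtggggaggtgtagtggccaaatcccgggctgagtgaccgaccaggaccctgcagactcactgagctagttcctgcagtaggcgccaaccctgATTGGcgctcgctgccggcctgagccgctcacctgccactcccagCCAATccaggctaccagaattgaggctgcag
Ppp1r3g: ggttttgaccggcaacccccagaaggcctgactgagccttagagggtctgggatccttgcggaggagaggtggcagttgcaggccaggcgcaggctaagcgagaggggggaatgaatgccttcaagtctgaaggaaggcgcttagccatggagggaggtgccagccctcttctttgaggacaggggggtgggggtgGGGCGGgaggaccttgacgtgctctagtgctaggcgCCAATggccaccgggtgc
Camk1d: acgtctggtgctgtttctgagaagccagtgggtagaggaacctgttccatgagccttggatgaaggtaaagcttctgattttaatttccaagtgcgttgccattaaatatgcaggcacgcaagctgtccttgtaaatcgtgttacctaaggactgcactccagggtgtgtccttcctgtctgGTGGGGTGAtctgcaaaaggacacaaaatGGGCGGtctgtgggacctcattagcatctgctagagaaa
Plekhd1 holds 2 NF-Y matches and no Sp1 match, and Ppp1r3g holds 1 of each. Camk1d encodes a calcium/calmodulin-dependent kinase and read 6.23 and 6.11 in TgSREBP-1a, 5.45 and 5.41 in TgSREBP-2, and 5.54 and 5.54 in wild type, a difference of 0.74 (SE 0.0903, limma adjusted p = 0.00251). Among 19 genes called higher in TgSREBP-1a with a promoter (22 promoters), 50% of promoters held CCAAT and 54.5% GGGCGG. Among 19 called higher in TgSREBP-2 (24 promoters), 58.3% held CCAAT and 12.5% GGGCGG, and none held the sterol regulatory element. Of the promoters of measured genes, 34.3% held CCAAT and 48.9% GGGCGG. Some genes have several promoters. Counted by gene, 10 of 19 held CCAAT in each direction, and GGGCGG was in 10 genes higher in TgSREBP-1a and 3 higher in TgSREBP-2. The E-box was in none of the promoters of called genes and in 6.64% of those of measured genes. The promoters were grouped by the calls, and their shares were not tested.

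Conjugation enzymes were called in both directions. Sult1e1, the estrogen sulfotransferase, read 5.45 and 5.42 in TgSREBP-1a, 3.99 and 4.14 in TgSREBP-2, and 4.06 and 4.35 in wild type, a 2.58-fold difference (limma adjusted p = 0.000227). Gstm1, a glutathione transferase, read 9.67 and 9.56 against 8.96 and 8.76, a difference of 0.76 (limma adjusted p = 0.00654). TgSREBP-2 and wild type were alike in level for both genes and TgSREBP-1a was above them, although 2 other Gstm1 probe sets differed by -0.24 and 0.03. Toward TgSREBP-2, Nat8, an acetyltransferase of cysteine conjugates, read 8.0 and 7.75 in TgSREBP-1a, 9.0 and 8.84 in TgSREBP-2, and 9.47 and 8.97 in wild type (difference -1.04, limma adjusted p = 0.0271). Thus 2 of 14 conjugation and antioxidant genes were higher in TgSREBP-1a and 1 was higher in TgSREBP-2, with a median of 0.01. Over all genes, 0.388% and 0.354% were called in these directions. The Gstm1 call was lost without the first TgSREBP-1a array or the second TgSREBP-2 array (0.66 to 0.86 over all omissions), and the Nat8 call without any of the 4 (-1.17 to -0.92).

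No cytochrome P450 or partner gene was called among 9 measured. Cyb5b, the mitochondrial outer membrane cytochrome b5, was the widest, at 7.95 and 7.67 in TgSREBP-1a, 7.43 and 6.49 in TgSREBP-2, and 6.44 and 5.97 in wild type. The TgSREBP-2 duplicates were further apart than the group means, and the difference of 0.85 (SE 0.298) was not called. Another Cyb5b probe set, at low signals, differed by 0.03. Cyp2c55, a P450 of the Cyp2c family, differed by only -0.18 between the transgenes, at 5.30 and 5.08 against 5.31 and 5.42, although wild type stood at 3.45 and 3.56.

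Abca5, an ABC transporter of lysosomes and endosomes, read 7.09 and 6.87 in TgSREBP-1a, 5.66 and 6.0 in TgSREBP-2, and 5.95 and 5.72 in wild type. It was 2.22-fold higher in TgSREBP-1a (limma adjusted p = 0.00494), the only call among 15 ABC transporters, and the call was lost without the first TgSREBP-1a or the first TgSREBP-2 array (0.98 to 1.32 over all omissions). Vnn1, the pantetheinase that recycles a precursor of coenzyme A, read 5.69 and 6.10 in TgSREBP-1a, 5.01 and 4.80 in TgSREBP-2, and 5.50 and 5.25 in wild type. Wild type lay between the transgenes, which differed by 0.99 (limma adjusted p = 0.00797), and the call was lost without the second array of either transgene (0.78 to 1.19). Over all genes, 0.742% were called, the share to set beside the ABC transporter count. Vnn1 was the only call among 9 genes of fatty acid oxidation and ketogenesis, against the same 0.742%. Decr2, a peroxisomal reductase of that list, differed by 0.33 and Hadhb, a subunit of the mitochondrial trifunctional protein, by -0.34.

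The remaining genes named toward TgSREBP-1a have varied roles. Fyb2, an adaptor protein, read 8.06 and 7.51 in TgSREBP-1a, 6.31 and 6.20 in TgSREBP-2, and 6.20 and 6.13 in wild type, a 2.89-fold difference. Anxa5, a calcium-dependent phospholipid-binding protein, differed by 1.48 on an _f_at probe set (5.24 and 5.09 against 3.63 and 3.73), while 2 other Anxa5 probe sets, 1 of them brighter, differed by -0.19 and -0.07. Hephl1, a copper-dependent ferroxidase, differed by 1.07 (4.98 and 4.91 against 3.88 and 3.87). In these 3 genes wild type lay within 1.5-fold of TgSREBP-2. Nrg4, a ligand of the ErbB4 receptor, read 8.15 and 8.27 in TgSREBP-1a, 7.37 and 7.48 in TgSREBP-2, and 7.52 and 7.45 in wild type, a difference of 0.78 (limma adjusted p = 0.00251) that was called without any single array. Nipal1, a magnesium transporter, was called on both of its probe sets, at 0.73 and 0.88.

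Acpp, an acid phosphatase, differed by 1.01, and Cemip2, a cell-surface hyaluronidase, by 0.94. Ip6k2, an inositol hexakisphosphate kinase, also differed by 1.01, with 5 other probe sets of the gene between -0.02 and 0.86 and none of them called. Gramd3 and Ggct, a GRAM domain protein and the cyclotransferase of glutathione breakdown, differed by 1.21 and 0.94 from low TgSREBP-2 signals. With single arrays left out, Ip6k2 ran from 0.73 to 1.29, Ggct from 0.67 to 1.2 and Gramd3 from 1.17 to 1.25. Each lost its call without the first TgSREBP-1a array, Ip6k2 and Ggct also without the second TgSREBP-2 array, Ip6k2 without the second TgSREBP-1a array and either array of the Scap wild type, and Ggct without the first TgSREBP-2 array. The rest of the named calls toward TgSREBP-1a were smaller, from 0.64 for Endod1 to 0.92 for Dnase1l3, a secreted nuclease, and Smoc2, a matrix protein. They include Mblac2, Zbtb16, a zinc finger transcription factor, Sh3bgrl3, and Borcs7, a subunit of the complex that positions lysosomes. Endod1, Dnase1l3, Sh3bgrl3 and Borcs7 each lost the call when any of the 4 transgenic arrays was left out. Mblac2, Zbtb16 and Smoc2 lost theirs without some of these arrays. Second probe sets differed by 0.01 for Borcs7, 0.28 for Sh3bgrl3, 0.07 for Smoc2 and 0.52 for Mblac2, and none of these was called. The largest difference of a probe set with no gene name was 1.02, from a low signal in TgSREBP-2.

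**Figure D3:**
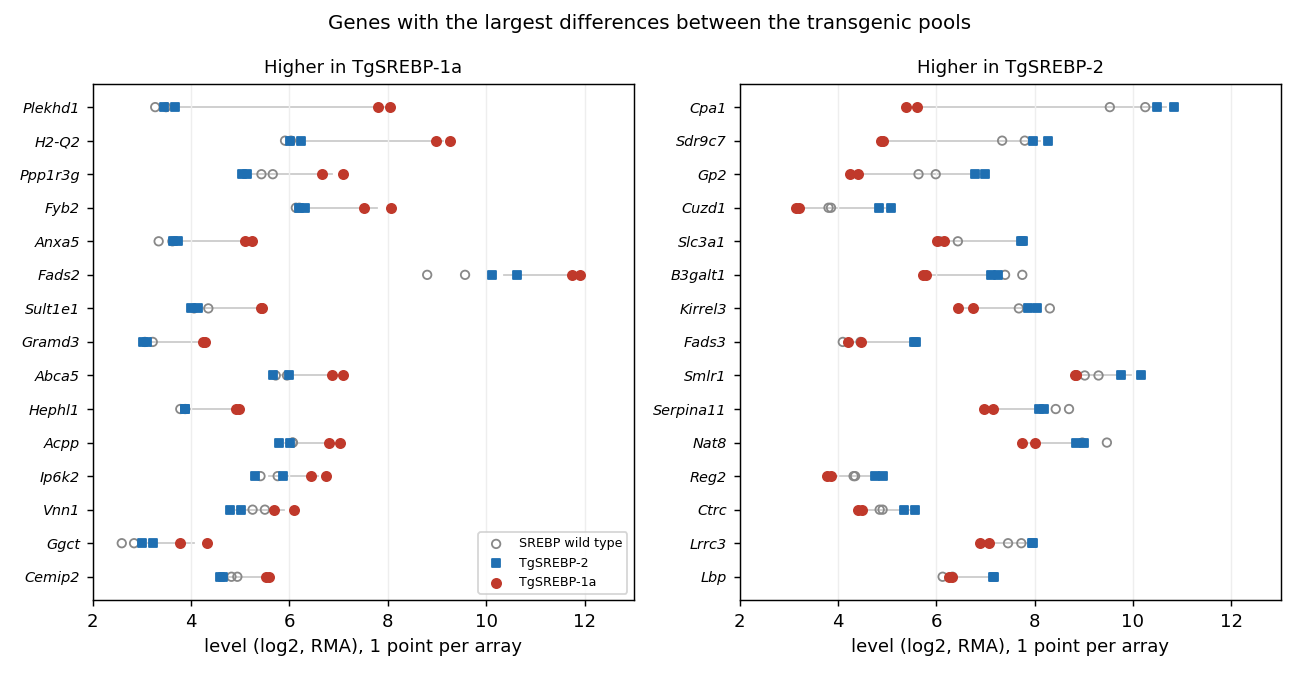
Levels of the 15 named genes furthest toward TgSREBP-1a (left) and the 15 furthest toward TgSREBP-2 (right), in log2 RMA units with 1 point per array. Red circles are TgSREBP-1a, blue squares TgSREBP-2, open circles SREBP wild type, and grey lines join the transgenic means. On the left the open circles mostly lie on the blue squares, with Fads2 an exception, where wild type at 9.57 and 8.80 is below both transgenes.

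Toward TgSREBP-2, the widest gap was in Cpa1, the digestive enzyme carboxypeptidase A1 of the exocrine pancreas. It read 5.38 and 5.60 in TgSREBP-1a, 10.84 and 10.49 in TgSREBP-2, and 10.25 and 9.53 in wild type. TgSREBP-2 and wild type were high and TgSREBP-1a low. The difference of -5.18 (SE 0.198, limma adjusted p = 1.15e-07) is 36.1-fold. Gp2, a glycoprotein of the zymogen granule membrane, read 4.25 and 4.41 in TgSREBP-1a, 7.0 and 6.79 in TgSREBP-2, and 5.99 and 5.64 in wild type, 5.9-fold higher in TgSREBP-2. Cuzd1, another zymogen granule protein, read 3.15 and 3.21, 5.09 and 4.83, and 3.81 and 3.86 in the same order, a difference of -1.78 from a low signal in TgSREBP-1a.

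Of 11 measured pancreatic acinar markers, 4 were called higher in TgSREBP-2 (Cpa1, Gp2, Cuzd1 and Reg2), none higher in TgSREBP-1a, and 10 of 11 lay below 0, with a median of -0.57 against -0.02 for all genes. Over all genes, 0.354% were called higher in TgSREBP-2. Cpa1, Gp2 and Cuzd1 had already been seen to differ between these pools when the list was chosen. Reg2, a secreted lectin-like protein of acinar cells, differed by -1.02 and lost its call without any of the 4 arrays (-1.10 to -0.94). Ctrc, chymotrypsin C, differed by -1.0 on a called _f_at probe set and by -0.60 on a brighter one that was not called. The summed level of the list was 8.41 to 8.45 in TgSREBP-1a, 10.92 to 11.22 in TgSREBP-2 and 10.09 to 10.64 in wild type, on a log2 scale. Such sums add levels before log2 is taken, so the brightest gene weighs most. Most of this sum was Cpa1 in TgSREBP-2 (10.84 and 10.49) and in wild type (10.25 and 9.53). Other defining markers were low in both transgenes, Amy2a5 at 2.53 to 3.11 and Cpb1 at 2.86 to 3.21, and the acinar transcription factor Ptf1a differed by -0.05. In the other study of the series, Cpa1 read 5.59 and 5.45 in Scap-/- liver and 8.37 and 8.39 in its wild type. Gp2 was also lower in Scap-/-, at 4.55 and 4.19 against 5.84 and 5.55. So were Reg2 (3.62 and 4.18 against 4.69 and 4.48) and, at mostly low signals, Cuzd1 (3.10 and 3.19 against 3.65 and 3.42). Ctrc overlapped between these pools on both probe sets. That comparison was not tested here. With the 15 probe sets of the acinar list left out, 56 probe sets were called, 32 higher in TgSREBP-1a and 24 higher in TgSREBP-2. The part of pancreatic RNA in the other calls was not tested.

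**Figure D4:**
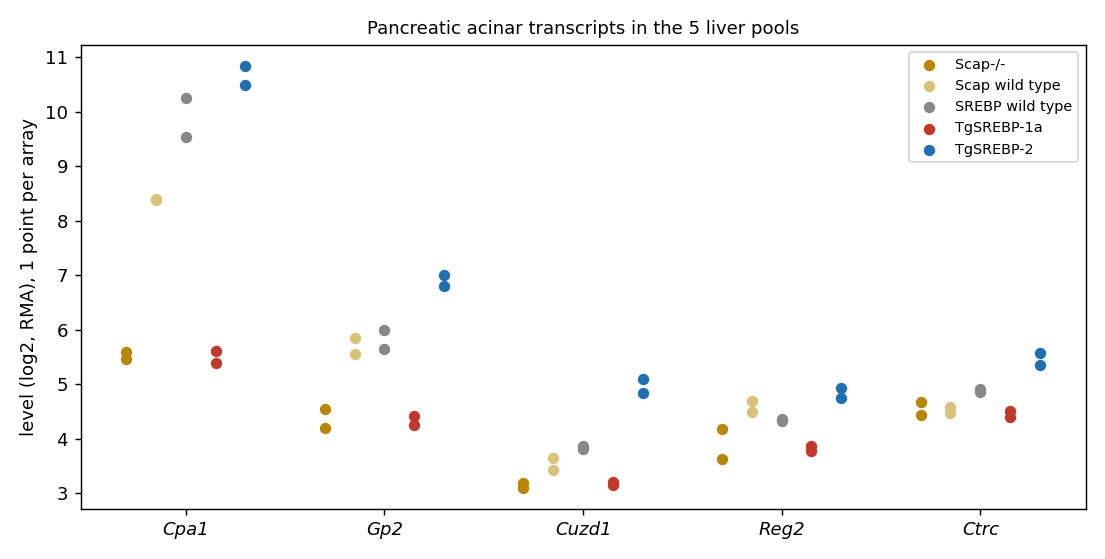
Levels of 5 acinar transcripts in the 5 liver pools (log2 RMA units), 1 point per array, coloured by group. For Cpa1 the TgSREBP-1a arrays (5.38 and 5.60) lie beside Scap-/- (5.59 and 5.45), and the TgSREBP-2 arrays (10.84 and 10.49) are the highest of the 10.

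Apart from acinar genes, Sdr9c7 had the widest gap toward TgSREBP-2. Sdr9c7, a short-chain dehydrogenase, read 4.87 and 4.91 in TgSREBP-1a, 8.27 and 7.97 in TgSREBP-2, and 7.80 and 7.34 in wild type. Wild type lay next to TgSREBP-2 and TgSREBP-1a was low, 9.41-fold below TgSREBP-2 (log2 -3.23, SE 0.205, limma adjusted p = 1.21e-05). B3galt1, a galactosyltransferase, and Kirrel3, an adhesion protein of the immunoglobulin superfamily, showed the same arrangement, with differences of -1.42 and -1.36. For B3galt1, 2 other probe sets differed by -0.40 and -0.09, and the Kirrel3 call was lost without the first array of either transgene (-1.51 to -1.22).

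Slc3a1, the heavy subunit of the transporter for cystine and dibasic amino acids, was arranged the other way. It read 6.16 and 6.02 in TgSREBP-1a, 7.73 and 7.77 in TgSREBP-2, and 6.44 and 6.07 in wild type. TgSREBP-2 stood above the other 2 genotypes, 3.15-fold above TgSREBP-1a (log2 -1.66, SE 0.185, limma adjusted p = 0.00137). It was the only call among 104 solute carriers (0.742% of all genes were called), whose median was -0.01. Slc9a4, a sodium/proton exchanger, differed by -1.07 (limma adjusted p = 0.18) and was not called. Smlr1 and the largest unnamed call also had wild type near TgSREBP-1a, with differences of -1.13 (-1.34 to -0.93 with arrays left out) and -2.14 (-2.45 to -1.83). Both calls were lost without either TgSREBP-1a array or the first TgSREBP-2 array.

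Of 32 genes of the acute phase, complement and coagulation, 2 were called higher in TgSREBP-2, where 0.354% of all genes were, and none higher in TgSREBP-1a. The list's median was -0.06, and 10 of its genes lay above 0, where 43.7% of all genes did. Lbp, which carries bacterial lipopolysaccharide to its receptor, read 6.33 and 6.25 in TgSREBP-1a, 7.16 and 7.18 in TgSREBP-2, and 6.33 and 6.13 in wild type. Serpina11, a serpin of liver, read 6.97 and 7.15, 8.19 and 8.09, and 8.70 and 8.43. Thus TgSREBP-2 was the pool that stood off wild type for Lbp, and TgSREBP-1a for Serpina11. The differences were -0.88 (limma adjusted p = 0.0253) and -1.08 (limma adjusted p = 0.00154), and the Lbp call was lost without any of the 4 arrays (-0.92 to -0.84). Il1rap, the accessory subunit of the interleukin-1 receptor, differed by -1.26 (5.57 and 5.48 against 6.85 and 6.72) but was not called (limma adjusted p = 0.0691). Its second probe set differed by -0.15.

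Plg, plasminogen, differed by -0.60, Fga, the fibrinogen alpha chain, by -0.55, and Hpx, the haem carrier hemopexin, by -0.54, and none of them was called. Hp, haptoglobin, C1qc and C4b differed by -0.04, -0.05 and 0.10. Beside these values, the summed level of the 5 hepatocyte markers was 10.84 to 10.89 in TgSREBP-1a and 11.10 to 11.46 in TgSREBP-2. Most of that sum was Hpx, at 10.44 and 10.34 against 11.16 and 10.70. None of the 5 was called.

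Klb, beta-klotho, the co-receptor through which FGF21 and FGF15 act, read 5.29 and 5.15 in TgSREBP-1a, 5.75 and 5.85 in TgSREBP-2, and 6.22 and 6.38 in wild type. Both transgenes lay below wild type and TgSREBP-1a was the lowest. The difference of -0.59 (SE 0.103, limma adjusted p = 0.0278) only just passed the fold required, and the call was lost under both other normalisations and without any of the 4 arrays (-0.66 to -0.52). Klb was the only call among 20 genes of insulin, FGF and growth factor signalling (0.742% of all genes were called), of which 15 lay below 0. In the same list, Fgf21 differed by -0.38 (4.89 and 5.14 against 5.33 and 5.45), Egfr by -0.54 (4.68 and 4.64 against 5.27 and 5.13), and Pik3r1, a regulatory subunit of phosphoinositide 3-kinase, by 0.59 (7.44 and 7.10 against 6.88 and 6.47). In these 3 genes the transgenes' arrays did not overlap, and none was called.

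The remaining calls toward TgSREBP-2 were between -0.97 and -0.69 for Lrrc3, Scara5, a ferritin receptor, Klk1b21, a kallikrein, Ascc2, Gas7 and Iqcf3. The clone 2210010C04Rik was called on 1 of 3 probe sets, at -1.31, with the others at -0.12 and -0.02. The called probe set read 4.44 and 4.33 in TgSREBP-1a, 5.86 and 5.54 in TgSREBP-2, and 5.63 and 5.27 in wild type. TgSREBP-1a was thus low and wild type near TgSREBP-2. The clone is not on the acinar list, so it stays among the 56 calls left without that list. The calls of Lrrc3 (-1.07 to -0.88), Scara5, Klk1b21, Ascc2, Gas7 and Iqcf3 were each lost when any of the 4 transgenic arrays was left out. Scara5, Klk1b21 and Iqcf3 also lost theirs without either array of the Scap wild type. Other probe sets differed by -0.21 and -0.05 for Gas7, -0.19 for Iqcf3 and -0.03 for Scara5, and none of these was called.

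**Figure D5:**
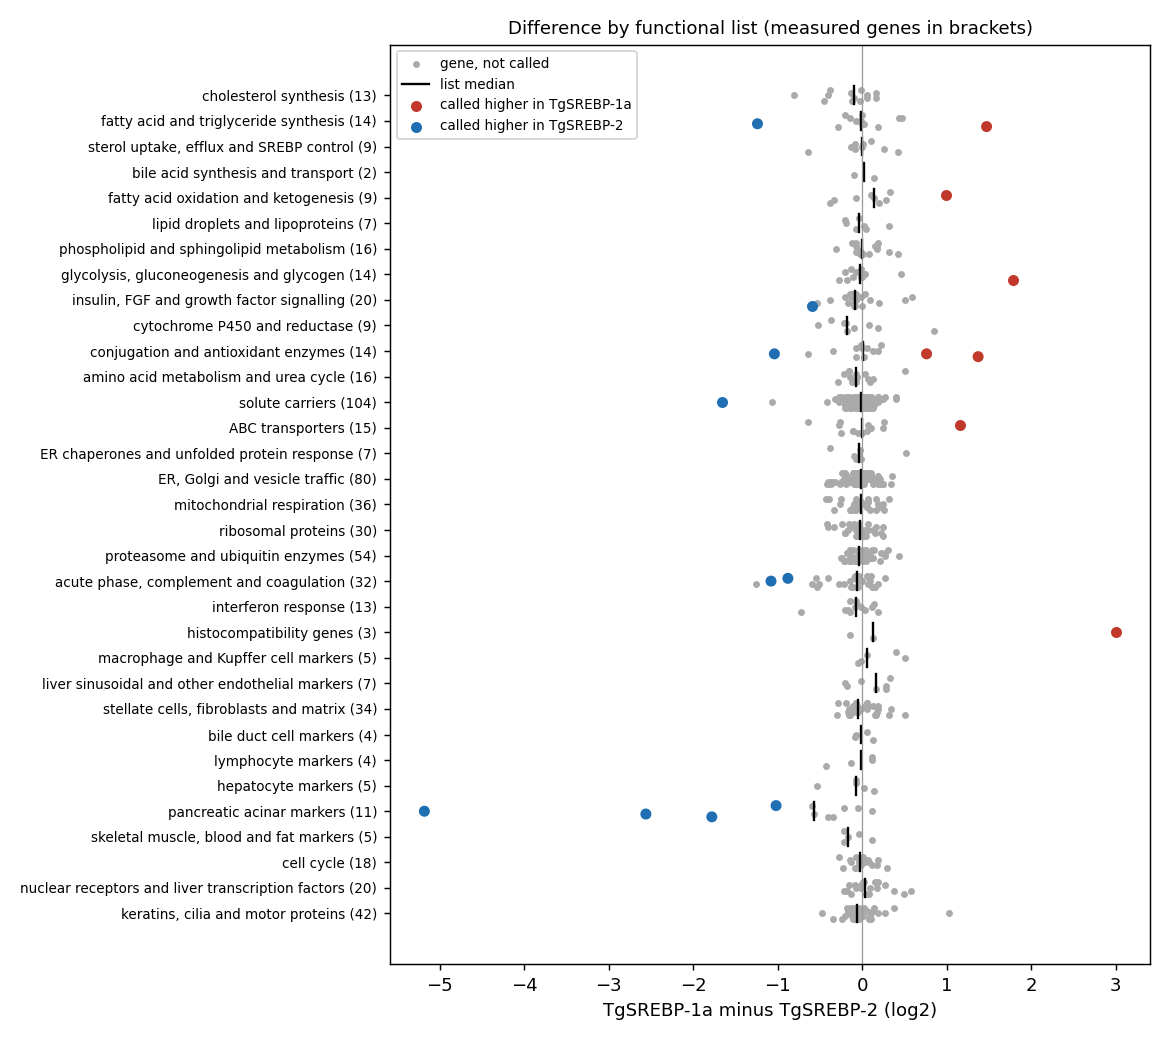
Difference (TgSREBP-1a minus TgSREBP-2, log2) of every measured gene in 33 functional lists, with the number of measured genes in brackets. Grey points were not called, red points were called higher in TgSREBP-1a, blue points higher in TgSREBP-2, and black bars mark list medians. Most medians lie near 0, that of the acinar markers is -0.57, and the called genes are single points away from their list.

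Across the 33 lists, 17 of 656 genes were called (2.59%, against 0.742% of all genes), and outside the acinar list no list held more than 3. The lists were chosen with earlier results of these data known, so the gap between these shares is not read as a result. With so few genes called over all, nothing is read from a count of 0 in any list, here or above. The same holds for mitochondrial respiration (36 genes, median -0.02), ribosomal proteins (30, -0.03), proteasome and ubiquitin enzymes (54, -0.04), vesicle traffic (80, -0.01), ER chaperones (7, -0.04), amino acid metabolism (16, -0.07), cell cycle (18, -0.03) and nuclear receptors and liver transcription factors (20, 0.03). Over all probe sets, 919 (7.74%) had an unadjusted p under 0.05 in the same fit. In the transcription factor list, the nuclear receptor Nr2c1 differed by 0.58 (7.26 and 7.18 against 6.53 and 6.74) and was not called (limma adjusted p = 0.0691), but it was called under both other normalisations. Edem1, which sends misfolded glycoproteins for degradation, was the widest chaperone gene at 0.52, and Dynlt3, a dynein light chain, the widest cytoskeletal gene at 1.03 (SE 0.372). Neither Edem1 nor Dynlt3 was called. Dimmer probe sets differed by -0.03 and -0.06 for Edem1 and, at low signals, by -0.06 and -0.08 for Dynlt3.

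Markers of other liver cells differed less than the acinar list. None of 5 macrophage and Kupffer cell markers was called, but their summed level was 10.41 to 10.49 in TgSREBP-1a, 10.02 to 10.13 in TgSREBP-2 and 9.48 to 9.76 in wild type. Laptm5, a lysosomal protein of blood cells, differed by 0.51 and Vsig4, a complement receptor of Kupffer cells, by 0.40, whereas C1qc, Fcgr1 and Lyz1 differed by between -0.05 and 0.06. Summed endothelial markers were 9.23 to 9.35 in TgSREBP-1a and 9.08 to 9.20 in TgSREBP-2, and stellate and matrix genes 11.28 to 11.39 and 11.28 to 11.38. Bile duct markers stood at 9.73 to 9.82 and 9.73 to 9.77, and lymphocyte markers at 8.95 to 8.99 and 8.88 to 8.93. The part of these cells in the called genes was not tested.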

How the data were processed

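Per the submitters' processing notes the authors made the deposited log2 values with RMA (background correction, normalisation between arrays and a summary per probe set), whereas the design text gives Microarray Suite 5.0. The log2 scale was read from the values, which carry no detection calls. The platform annotation names 1 gene for 7717 of 11868 tested probe sets, several for 150 and none for 4001, and 66 AFFX controls were left out.

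The comparison used limma 3.58.1 (R 4.3.3) and a single fit of 10 arrays and 5 groups (5 residual and 6.26 prior degrees of freedom), two-sided, with Benjamini-Hochberg adjustment over all 11868. The brightest probe set over the 10 arrays stands for a gene. In simulated data on 11868 probe sets, the fit recovered 56% of 50 changes of 1.5-fold, 98% of 2-fold and 100% of 3-fold and 4-fold changes, and called 5 unchanged probe sets. The number of arrays limits the precision.

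The comparison and the gene lists were chosen with earlier results of these data known. Named genes are the 15 widest calls in each direction with 1 symbol (clone names left out), the called list genes, all cholesterol and fatty acid synthesis genes, the widest gene of each other list, the widest unnamed call in each direction, and Cpa1, Gp2 and Cuzd1. Others were chosen after their values were seen. Promoters (GRCm38.p6) come from RefSeq, matched by symbol for 4681 of 5928 genes.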

Additional observations from a re-analysis of the deposited data

How the results depend on the processing

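Among the genes named by the rule above, no called difference changed direction under the alternatives run. The direction of the other calls was not followed. Of the 61 calls (32 higher and 29 lower in TgSREBP-1a), the count moved by more than 1.5 times in these settings. With 3191 probe sets of mean signal at least 6 tested, 30 were called (14 and 16), 29 of them among the 61. With 7488 plain _at probe sets tested, 36 were called (22 and 14), 32 of them among the 61. Both filters tested only part of the probe sets, so their lower counts alone do not show that calls were lost. The 4 arrays alone gave 94 (47 and 47), limma's treat against 1.2-fold 27 (14 and 13), and a 2-fold requirement 31 (14 and 17). Leaving out each of the 10 arrays gave 23 to 65 calls, 13 to 34 higher and 10 to 31 lower. The lone array was then assumed to vary like the other groups. Without the second TgSREBP-1a array 65.7% of calls were higher, against 52.5%, and 58.3% and 57.4% under quantile normalisation and median centring. The 17 called list genes became 10 under treat and 10 to 19 when arrays were left out. Il1rap became a call in 8 of 20 settings. Over the named genes, 1440 values kept their side of the threshold or their size, 63 lost a call, 21 gained one and 49 moved.

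The replicate numbers were taken as names only. Deviations of same-numbered arrays correlated at 0.204 to 0.332 in 7 of 10 pairs of groups and at -0.175 to -0.114 in 3, which all include TgSREBP-2, and at -0.175 between the transgenes. With a replicate block 96 were called (53 and 43), with 26 list genes, among them Tm7sf2, Cyb5b, Pik3r1 and Dynlt3, which were not called in the fit of 10 arrays without it. In alternatives chosen after seeing the data, the block within the 4 arrays gave 123 (62 and 61) and the crossed pairing 111 (54 and 57). The 18S control read 7.19 and 9.16 in TgSREBP-1a and 7.19 and 9.36 in TgSREBP-2, and beta-actin 3′ minus 5′ 0.83 and 0.81 against 1.05 and 1.10. The part of labelling or RNA quality in the calls was not tested. Low-signal probe sets have no detection call, so absence was not assessed.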
